A study of Rattus norvegicus with 9 samples.

Results

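Cells hold on to the matrix around them through integrins, each a pair of an alpha and a beta subunit, and through syndecans, membrane proteins that carry heparan sulfate chains. Inside the cell talins and kindlins switch integrins on, and a plaque of adaptor proteins and kinases links them to actin and to signalling. In cartilage these receptors join chondrocytes, the cells that make the matrix, to type II collagen and fibronectin, and fragments of fibronectin are known to provoke matrix breakdown through them. Expression of 38 genes of this kind was examined: the integrin subunits whose symbol ends in a number alone, with Itgav (20 subunits), the 4 syndecans, the collagen receptor kinases Ddr1 and Ddr2, dystroglycan (Dag1), and 11 genes of the adhesion plaque. They were matched by gene symbol among the 18924 genes in the table, and every listed name was found. Integrin subunits named by a letter, such as Itga2b and Itgal, fall outside this choice.

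RNA was sequenced from primary chondrocytes of SD rats at passage 1 or 2, in 3 groups of 3 libraries, each after 24 h. The RPTi group received rat plasma, thrombin and an inhibitor whose name is not stated, the RPT group rat plasma and thrombin, and the RP group rat plasma alone. All 3 groups therefore carry plasma, a source of fibronectin, vitronectin and fibrinogen, and thrombin is the protease that clots fibrinogen and cleaves protease-activated receptors. No group received plasma and inhibitor without thrombin. An effect of the inhibitor on its own and its effect on the response to thrombin therefore cannot be told apart. The series asks how thrombin acts on chondrocytes and names signalling by MEK, Erk1/2 and Stat3. Nothing in the labels ties the libraries within a group to different animals or cultures. The p-values therefore weigh group differences only against the spread between these samples, and that spread may be technical.

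Library totals were 31914905 to 37125039 counts in RPTi, 31877265 to 37009972 in RPT and 33520888 to 43962783 in RP, and 37 of the 38 genes had enough counts to be tested. Replicate 3 lay farthest from its group in RPT and in RP: over all tested genes, the chi-square of counts per degree of freedom was 17.4 and 27.6 for the RPT pairs with replicate 3, against 10.2 for replicates 1 and 2, and 15.4 and 20.5 against 6.77 in RP. No replicate pair agreed within sampling noise. All 10 chondrocyte markers examined were detected in each group, with Col2a1 at the highest level, which fits the labelled cell type. Their summed level was 73730 to 80030 CPM (counts scaled to library size, with TMM factors) in RPTi, 29950 to 31810 in RPT and 47720 to 48830 in RP. The type I collagen gene Col1a1, outside the marker list, was also abundant. It was at 12568 ± 872 CPM in RPTi, 6570 ± 450 in RPT and 12039 ± 700 in RP, and the purity and state of the cells were not tested. In these bulk samples, fewer cells of a type and less RNA per cell cannot be told apart.

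Itgb1, the beta subunit shared by the collagen, laminin and fibronectin receptors, was the most abundant of the 38 genes per length. Its FPKM (counts scaled for gene length and library total, as deposited) was 316 ± 8.30 in RPTi, 418 ± 60.3 in RPT and 360 ± 18.4 in RP (SD, n = 3). Sdc2 and Ilk followed, with 172 ± 11.8 and 140 ± 10.7 FPKM in RP. Neither overlapped a neighbour in that order, whereas Itgb5 overlapped Sdc4, and Dag1, Sdc1, Sdc3 and Tln1 formed a run of overlapping ranges in RP. The plaque genes other than Ptk2b lay between 13.9 and 140 FPKM in RP. At the other end, Itgb2, Itgb4, Itgb6, Itgb7, Itga7, Ptk2b, Itga2, Itga4, Itgb3 and Itgb8 all had means below 1 FPKM in RP.

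**Figure D1:**
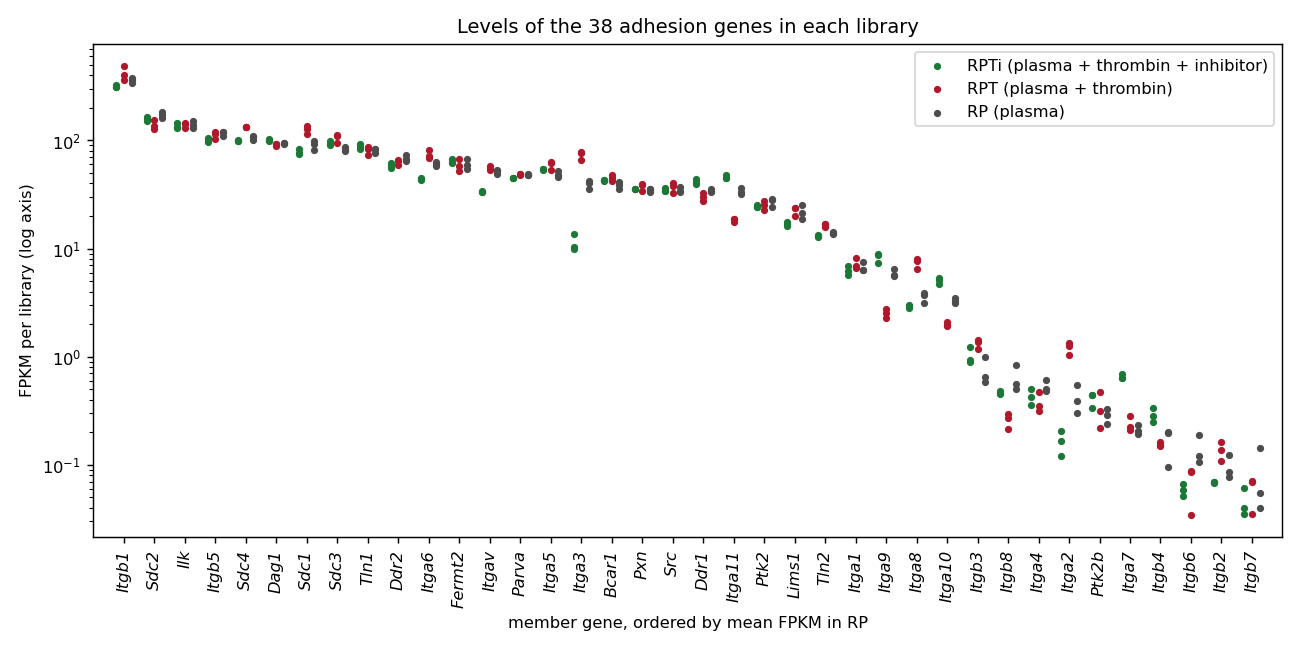
Deposited FPKM of each of the 38 genes (log axis) in every library, genes ordered by their mean in RP. Green points are RPTi, red RPT and grey RP libraries. Itgb1 stands highest, and Itga3 has separate groups at 11.3 FPKM in RPTi, 74.1 in RPT and 39.4 in RP on average.

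The clearest changes were in the alpha subunits, the chains that largely set the ligand. With thrombin the laminin receptor gene Itga3 and the RGD receptor gene Itga8 were higher, and Itga9, Itga10 and Itga11 were lower. With the inhibitor added to thrombin, Itga3 was 6.26-fold lower and Itga9, Itga10 and Itga11 were 2.63-fold to 3.50-fold higher. Of the 11 plaque genes, 1 passed in RPT against RP and 2 in RPTi against RPT. In RPT against RP, 16 of the 37 tested genes passed (edgeR quasi-likelihood test, Benjamini-Hochberg adjusted p below 0.05 over all 13856 tested genes), 10 of them higher and 6 lower. Of all genes 28.9% passed in that comparison, 13.6% higher and 15.2% lower. In RPTi against RPT, 9 rose and 10 fell of the 37, against 20.4% rising and 21.1% falling of all genes, 41.5% together. In RPTi against RP, 8 rose and 5 fell, against 11.9% and 12.3% of all genes, 24.2% together. The median log2 fold change of the members was 0.07, -0.03 and -0.04 in the 3 comparisons, beside -0.0007, -0.01 and -0.01 for all tested genes. Both comparisons with RPT use the same RPT libraries, so each is given with its own values. With library totals alone in place of TMM, 38.4% of all calls in RPTi against RPT were rises, in place of 49.2%, and 36.6% in RPTi against RP, in place of 49.1%. Under that scaling 8 members rose and 11 fell in RPTi against RPT.

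**Figure D2:**
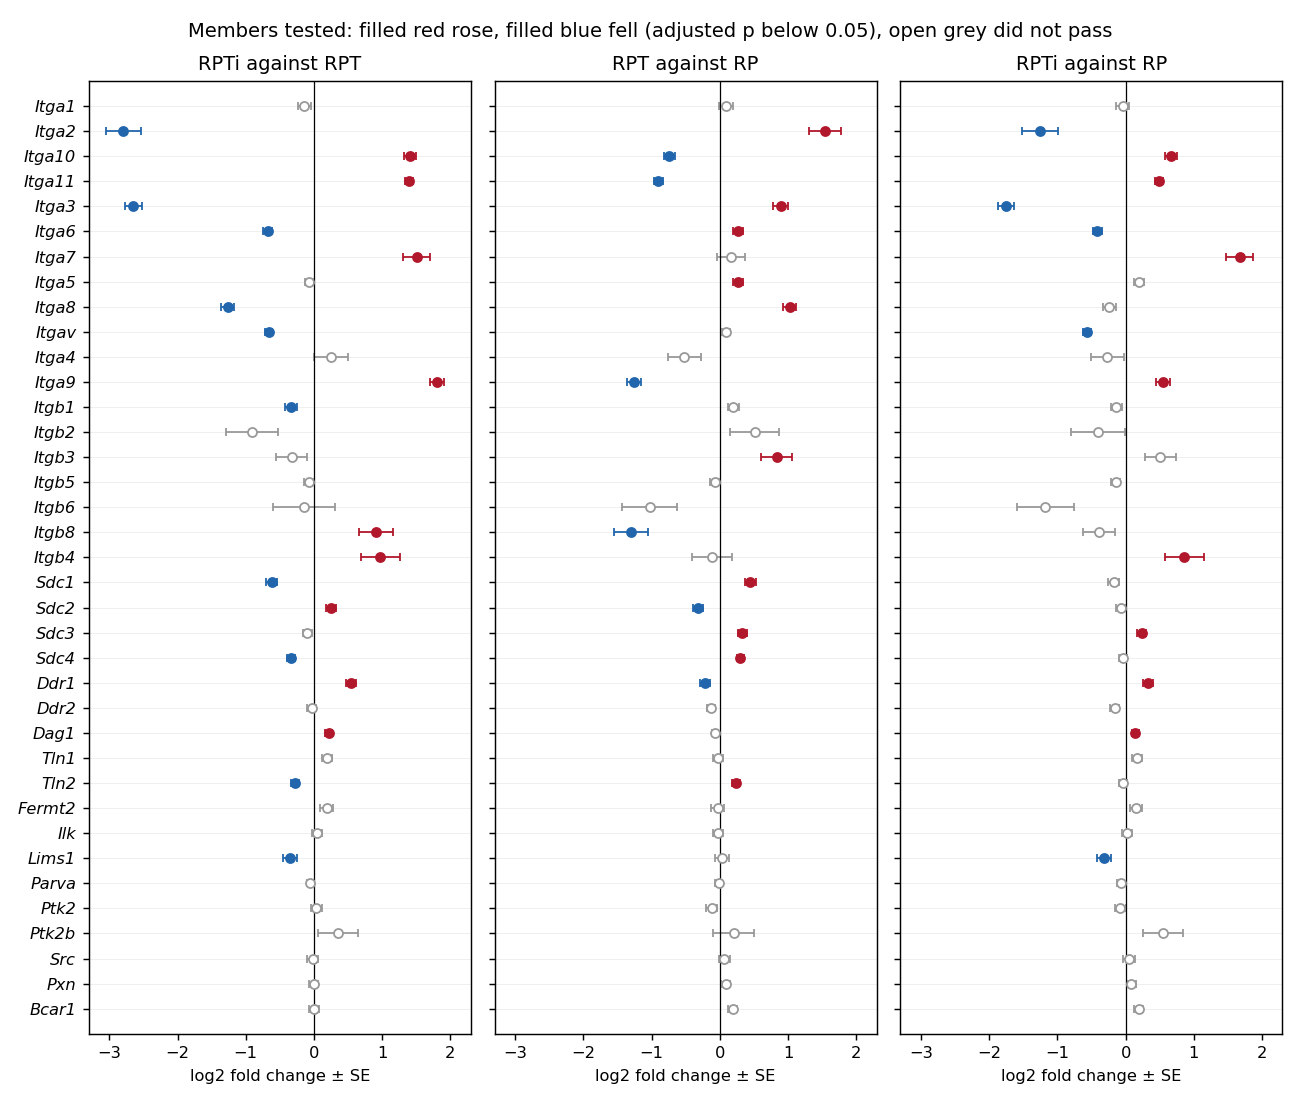
Log2 fold changes with standard errors of the 37 tested genes in RPTi against RPT (left), RPT against RP (middle) and RPTi against RP (right), genes grouped by role; filled points passed the test. Alpha subunits spread from -2.79 to 1.81 in RPTi against RPT, and the points of the 5 plaque kinases and scaffolds are all open, from -0.02 for Src to 0.35 for the scarce Ptk2b.

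Of the 4 collagen-binding alpha subunits, Itga10 and Itga11 were lower with thrombin, Itga2 was higher and Itga1 did not pass. Itga11, a receptor for fibrillar collagens, was the most abundant of the 4 per length. It had 216, 226 and 212 CPM in RPTi, against 83.4, 85.5 and 80.0 CPM in RPT and 152, 167 and 146 CPM in RP. The 3 groups did not overlap. Its log2 fold change was -0.90 (SE 0.06, adjusted p = 6.23e-07) in RPT against RP, 1.39 (SE 0.06, adjusted p = 5.17e-09) in RPTi against RPT and 0.49 (SE 0.06, adjusted p = 0.000116) in RPTi against RP. Itga10, known as a type II collagen receptor of chondrocytes, had 26.6, 24.5 and 27.6 CPM in RPTi, against 9.67, 9.60 and 10.5 CPM in RPT and 17.5, 16.6 and 15.6 CPM in RP. It had the same order of groups, again separate, with log2 fold changes of -0.74 (SE 0.09, adjusted p = 3.53e-05) in RPT against RP and 1.40 (SE 0.08, adjusted p = 4.73e-08) in RPTi against RPT. RPTi stood above RP as well, by 0.67 (SE 0.08, adjusted p = 8.18e-05).

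Itga2, a collagen receptor also found on platelets, was scarce and moved the other way. Its counts were 24, 15 and 29 in RPTi, 181, 163 and 130 in RPT and 66, 39 and 78 in RP. As CPM this was 0.668, 0.484 and 0.810 in RPTi, against 4.73, 5.05 and 3.96 in RPT and 1.49, 1.16 and 2.06 in RP. No group overlapped another, and the log2 fold change was 1.54 (SE 0.24, adjusted p = 0.00037) in RPT against RP, -2.79 (SE 0.26, adjusted p = 2.63e-06) in RPTi against RPT and -1.25 (SE 0.27, adjusted p = 0.00471) in RPTi against RP. Itga1 stayed between 24.5 and 33.1 CPM in the 9 libraries (log2 fold change 0.09 in RPT against RP, adjusted p = 0.524, and -0.14 in RPTi against RPT, adjusted p = 0.293). Of 4 platelet markers only Itga2b had enough counts to be tested, and it did not pass, at 0.537 ± 0.309 CPM in RPTi, 0.406 ± 0.157 CPM in RPT and 0.530 ± 0.189 CPM in RP. The 4 markers summed to 0.501 to 0.977 CPM in RPTi, 0.396 to 0.601 CPM in RPT and 0.608 to 0.859 CPM in RP, with Gp9 at 0 in RPT and RP and Gp1ba at 0 in RPT.

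Per length, the 4 collagen-binding subunits together came to 57.3 ± 1.17 FPKM in RPTi, 28.8 ± 1.38 in RPT and 44.3 ± 1.65 in RP (SD, n = 3). Itga11 made up 79.9%, 63.7% and 76.4% of this sum in RPTi, RPT and RP, and Itga1 made up 10.9%, 25.1% and 15.2%. The chondrocyte markers had the same order of groups as Itga10 and Itga11. Of the 10, 0 rose and 10 fell in RPT against RP, 10 rose and 0 fell in RPTi against RPT, and 8 rose and 0 fell in RPTi against RP. Their part in the integrin result was not tested.

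Of the 3 laminin-binding subunits, Itga3 and Itga6 rose with thrombin, and both fell when the inhibitor was added. Itga3, which pairs with Itgb1, had 50.4, 68.7 and 51.6 CPM in RPTi, against 372, 374 and 321 CPM in RPT and 196, 208 and 172 CPM in RP. Each group was clear of the others. The log2 fold change was 0.89 (SE 0.11, adjusted p = 7.17e-05) in RPT against RP, -2.65 (SE 0.12, adjusted p = 4.23e-09) in RPTi against RPT and -1.76 (SE 0.12, adjusted p = 4.18e-07) in RPTi against RP. Itga6, which pairs with Itgb1 or Itgb4, changed less, with 263, 269 and 276 CPM in RPTi, against 413, 402 and 477 CPM in RPT and 362, 344 and 369 CPM in RP. It was lowest in every RPTi library (log2 fold change 0.27, adjusted p = 0.00995, in RPT against RP and -0.68, adjusted p = 4.59e-06, in RPTi against RPT).

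Itga7, the laminin receptor subunit of muscle, was scarce and higher with the inhibitor. It had 3.31, 3.29 and 3.6 CPM in RPTi, against 1.39, 1.05 and 1.13 CPM in RPT and 1.04, 0.983 and 1.16 CPM in RP. RPTi lay above both other groups, which overlapped (log2 fold change 1.51, SE 0.20, adjusted p = 5.23e-05, in RPTi against RPT and 0.17, adjusted p = 0.598, in RPT against RP). Of 6 smooth muscle and fibroblast markers, 5 rose and 1 fell in RPTi against RPT, and 0 rose and 3 fell in RPT against RP. Their summed level was 932.7 to 1125 CPM in RPTi, 697.7 to 778.1 CPM in RPT and 787.4 to 876.1 CPM in RP. By the mean over the 3 groups the most abundant were Thy1, at 394 ± 33.8 CPM in RPTi, 539 ± 29.6 in RPT and 557 ± 32.8 in RP, and Acta2, at 424 ± 70.1 CPM in RPTi, 61.6 ± 5.80 in RPT and 102 ± 6.21 in RP. In RPT and RP, Pdgfrb stood above Acta2, at 129 and 155 CPM on average. None of the 6 was at 0, and their part in the Itga7 result was not tested. The span of Itga7 from start to end also overlaps that of Mettl7b in the RefSeq gene table (GRCr8, another build than the counts use). Whether their exons overlap was not examined. Only reads from a shared exon stretch could be mixed up, and the strand setting is not stated. Spans also overlapped for Itga1 with Pelo, Itga4 with Cerkl, Tln1 with Creb3, Ilk with Taf10, Fermt2 with Rps10l6 and Itgb7 with Znf740, and for Itgb1 with 1 further coding gene. Per length, Itga3 and Itga6 gave the laminin group nearly all of its 55.8 ± 2.35 FPKM in RPTi, 148 ± 2.23 in RPT and 100 ± 1.32 in RP. Itga3 took 20.1% of it in RPTi, 50% in RPT and 39.3% in RP.

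**Figure D3:**
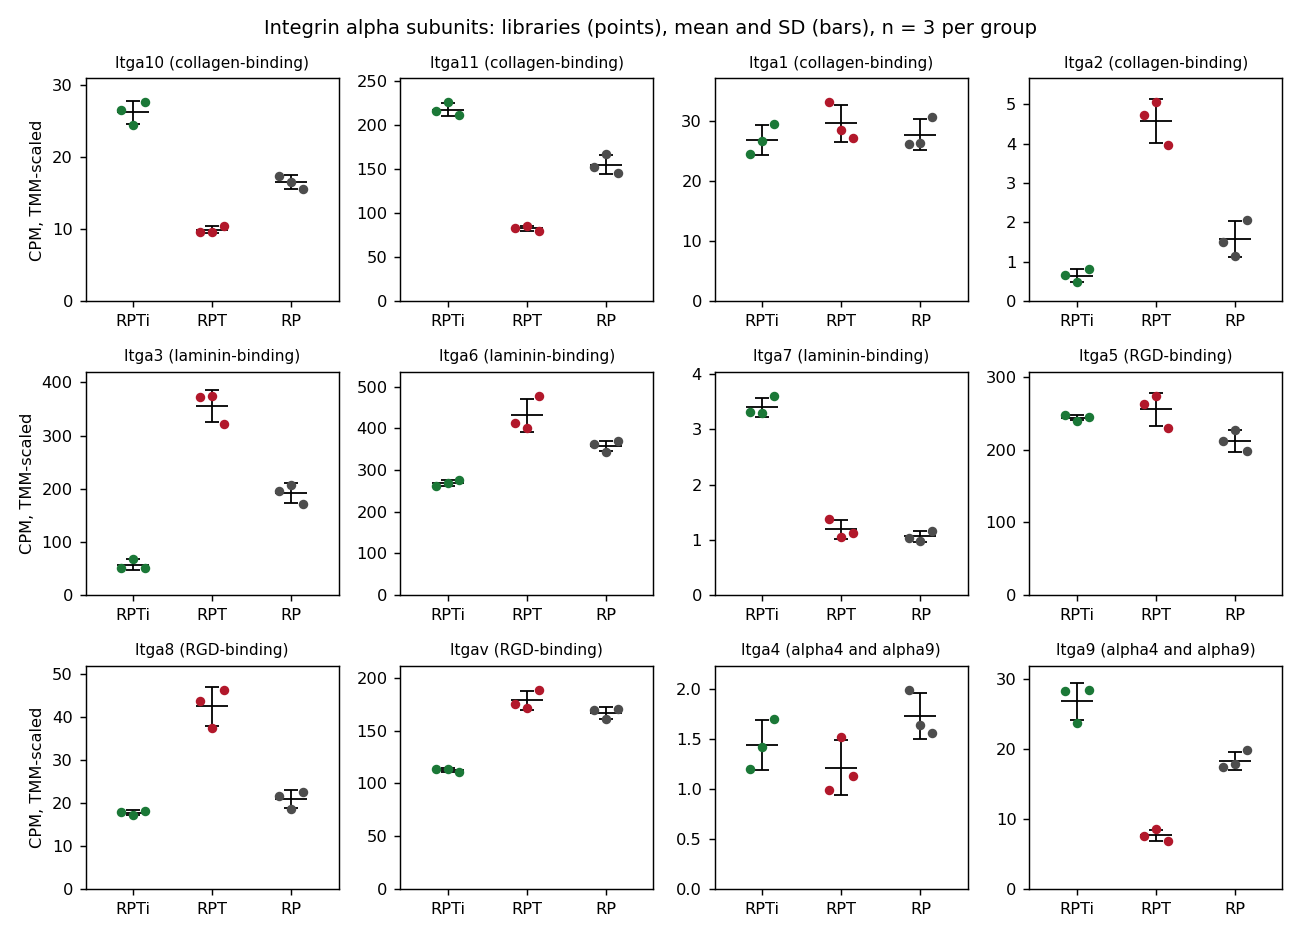
TMM-scaled CPM of the 12 integrin alpha subunits in each library (points) with the group mean and SD (bars, n = 3), RPTi left, RPT middle and RP right, each panel with its own axis from 0. Itga10, Itga11 and Itga9 are lowest in RPT, and Itga2, Itga3 and Itga8 are highest there.

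The RGD-binding subunits, which recognise fibronectin, vitronectin and related proteins, did not move as one. Itga8, a receptor for nephronectin and fibronectin, had 17.8, 17.2 and 18.2 CPM in RPTi, against 43.6, 37.5 and 46.3 CPM in RPT and 21.5, 18.6 and 22.6 CPM in RP. Every RPT library was above all the others (log2 fold change 1.02, SE 0.09, adjusted p = 5.58e-06, in RPT against RP and -1.26, SE 0.10, adjusted p = 3.94e-07, in RPTi against RPT). Itgav, partner of Itgb3, Itgb5, Itgb6 and Itgb8 and known for releasing active TGF-beta, had 114, 114 and 111 CPM in RPTi, against 176, 172 and 189 CPM in RPT and 169.5, 161 and 171 CPM in RP. The RPTi libraries were lower by 0.67 on the log2 scale than RPT (a log2 fold change of -0.67, SE 0.06, adjusted p = 1.24e-06) and by 0.57 than RP (-0.57, SE 0.06, adjusted p = 1.52e-05). RPT against RP did not pass for Itgav (0.10, adjusted p = 0.23).

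Itga5, the classical fibronectin receptor subunit, averaged 244 ± 3.87 CPM in RPTi, 255 ± 23.2 CPM in RPT and 212 ± 14.9 CPM in RP (SD, n = 3). It rose by 0.27 on the log2 scale in RPT against RP (SE 0.07, adjusted p = 0.0155) and did not pass in RPTi against RPT (-0.07, adjusted p = 0.508). The rise was lost when RP replicate 1 (0.27, adjusted p = 0.0533), RP replicate 3 (0.22, adjusted p = 0.0602), RPT replicate 1 (0.25, adjusted p = 0.0582) or RPT replicate 2 (0.22, adjusted p = 0.0537) was left out. In RPTi against RP the value for Itga5 was 0.20 (adjusted p = 0.0629), and it passed when RP replicate 2 (0.25, adjusted p = 0.043), RPT replicate 2 (0.20, adjusted p = 0.0453) or RPT replicate 3 (0.20, adjusted p = 0.0175) was left out. In the same comparison Itga8 was at -0.24 (adjusted p = 0.0932) and passed without RP replicate 2 (-0.32, adjusted p = 0.0365).

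Itga9, whose ligands include tenascin C and osteopontin, had the largest fall with thrombin among the alpha subunits. It had 28.3, 23.8 and 28.5 CPM in RPTi, against 7.61, 8.51 and 6.92 CPM in RPT and 17.4, 17.8 and 19.8 CPM in RP. The groups were fully apart, with log2 fold changes of -1.26 (SE 0.11, adjusted p = 2.77e-06) in RPT against RP, 1.81 (SE 0.11, adjusted p = 3.72e-08) in RPTi against RPT and 0.55 (SE 0.10, adjusted p = 0.00155) in RPTi against RP. Its close relative Itga4, a receptor for VCAM1 best known in leukocytes, ran from 0.994 to 1.99 CPM and passed in no comparison.

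Summed over the 12 alpha subunits, levels per length were 212.3 ± 2.21 FPKM in RPTi, 302 ± 5.61 in RPT and 255 ± 2.69 in RP. Of that sum, Itga3 took 5.30% ± 0.909 in RPTi, 24.5% ± 1.86 in RPT and 15.5% ± 1.19 in RP (SD, n = 3). Itga11 took 21.6% ± 0.614 in RPTi, 6.07% ± 0.165 in RPT and 13.3% ± 0.708 in RP. Itga5, which itself passed only in RPT against RP, took 25.4% ± 0.619 in RPTi, 19.6% ± 1.64 in RPT and 19.1% ± 1.0 in RP. A share depends on every subunit in the sum and was not tested.

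**Figure D4:**
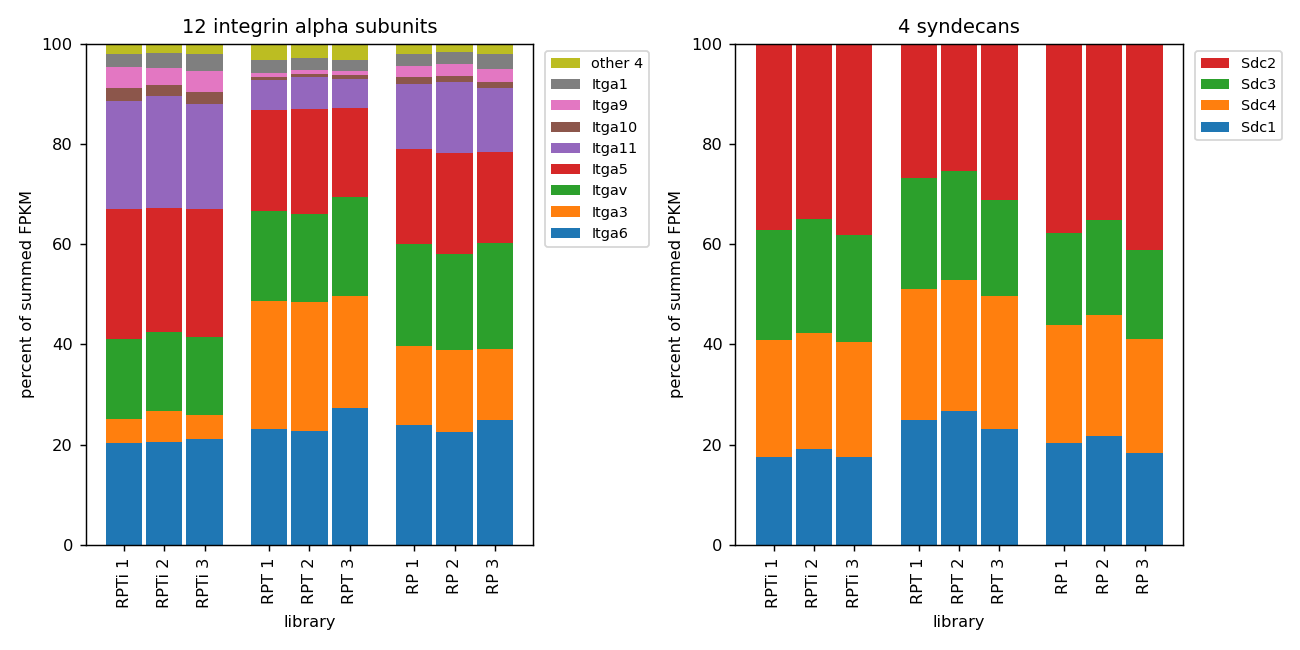
Percent of the summed deposited FPKM taken by each integrin alpha subunit (left; the other 4 are Itga8, Itga2, Itga4 and Itga7) and by each syndecan (right), one bar per library in the order RPTi, RPT and RP. The Itga3 band is widest in RPT and narrowest in RPTi, and the Itga11 band is the reverse.

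Promoters are shown for Itga2 and Itga3, which rose with thrombin, and for Itga10 and Itga11, which fell. Each runs from 250 bases before to 50 bases after the gene's first listed start in RefSeq (build GRCr8, another build than the counts use), in the direction of transcription, and 26 of the 38 genes had one. Capitals mark the letters GGAATG, which TEAD factors bind, and GGGCGG, which Sp factors bind, on either strand. In these 4 promoters no match overlapped another. The promoters lie at chr2:48354460-48354759 (minus strand) for Itga2, chr10:80518852-80519151 (minus strand) for Itga3, chr2:186871461-186871760 (plus strand) for Itga10 and chr8:72041182-72041481 (plus strand) for Itga11.
Itga2: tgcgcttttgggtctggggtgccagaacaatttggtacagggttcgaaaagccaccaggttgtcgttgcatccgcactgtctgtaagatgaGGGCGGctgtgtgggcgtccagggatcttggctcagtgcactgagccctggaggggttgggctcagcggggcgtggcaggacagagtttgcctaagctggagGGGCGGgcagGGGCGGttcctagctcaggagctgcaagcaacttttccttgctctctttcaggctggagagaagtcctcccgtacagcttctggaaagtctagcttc
Itga3: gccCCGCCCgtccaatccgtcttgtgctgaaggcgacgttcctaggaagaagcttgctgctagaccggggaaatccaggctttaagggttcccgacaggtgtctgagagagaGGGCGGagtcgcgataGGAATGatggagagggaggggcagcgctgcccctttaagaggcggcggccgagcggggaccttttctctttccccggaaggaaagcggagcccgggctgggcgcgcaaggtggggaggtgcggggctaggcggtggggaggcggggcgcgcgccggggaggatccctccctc
Itga10: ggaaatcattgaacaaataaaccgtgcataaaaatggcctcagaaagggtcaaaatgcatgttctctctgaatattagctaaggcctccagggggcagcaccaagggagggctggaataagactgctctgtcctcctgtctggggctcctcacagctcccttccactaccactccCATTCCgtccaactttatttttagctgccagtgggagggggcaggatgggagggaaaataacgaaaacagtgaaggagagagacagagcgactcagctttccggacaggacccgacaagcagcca
Itga11: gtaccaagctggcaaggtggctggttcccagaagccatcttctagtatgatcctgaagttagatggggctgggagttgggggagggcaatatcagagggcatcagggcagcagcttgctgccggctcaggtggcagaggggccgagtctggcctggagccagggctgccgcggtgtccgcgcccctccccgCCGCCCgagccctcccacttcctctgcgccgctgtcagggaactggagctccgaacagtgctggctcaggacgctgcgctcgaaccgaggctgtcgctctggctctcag

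GGGCGG was found in 3 places in the Itga2 promoter, 2 in Itga3, 1 in Itga11 and 0 in Itga10, and GGAATG in 1 place each in Itga3 and Itga10. These counts did not follow the direction of change in alpha subunits whose promoters are not printed. Itga9, with the largest fall with thrombin among the alpha subunits, held GGGCGG in 3 places. Itga8, which rose more than Itga3, held neither motif. Over the 26 promoters, 15 held GGGCGG (57.7%) and 6 held GGAATG (23.1%), beside 34.9% and 13.9% of all 27457 promoters. The members' promoters had a median GC content of 65.2%, against 52.3% for all promoters. The letters TGANTCA (N is any base), which AP-1 factors bind, were in 0 of the 26 and in 7.33% of all promoters. Each of the marked motifs was present both in a gene that rose and in one that fell. The letters CACGTG of the E-box were in 0 of the 26 and in 6.65% of all promoters. CGGAAG, the core that ETS factors bind, was in 3 (11.5%) and in 17.4% of all promoters. TATAAA was in 1 (3.85%), Itgb7, and in 14.3% of all promoters, and the CArG box of serum response factor was in 1 (3.85%), Itgb6, and in 1.64%. Dag1, Ddr2, Fermt2, Itga6, Itga7, Itgb2, Itgb3, Itgb4, Parva, Ptk2, Ptk2b and Sdc2 have none shown.

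Of the 7 tested beta subunits, Itgb3 rose and Itgb8 fell with thrombin, while the abundant Itgb1 and Itgb5 did not pass. Itgb1 had 1171, 1179 and 1219 CPM in RPTi, against 1438, 1318 and 1745 CPM in RPT and 1321, 1244 and 1358 CPM in RP. RPT replicate 3 stood well above its group. The log2 fold change of Itgb1 was 0.20 (SE 0.08, adjusted p = 0.0985) in RPT against RP, which passed without RPT replicate 2 (0.28, adjusted p = 0.0169) and was 0.08 without RPT replicate 3 (adjusted p = 0.329). Itgb1 also passed there with the replicate number as a block in the model (0.19, adjusted p = 0.0279). In RPTi against RPT it fell by 0.33 on the log2 scale (SE 0.08, adjusted p = 0.00649), and every RPTi library was below every RPT library. Without RPT replicate 3 this value was -0.21 (adjusted p = 0.00899). Itgb5, the partner of Itgav for vitronectin, was at 406 ± 18 CPM in RPTi, 427 ± 33.4 CPM in RPT and 449 ± 24.0 CPM in RP, and passed in none of the 3 comparisons.

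Itgb3 and Itgb8, other partners of Itgav, were scarce beside Itgb5, which made up 98.5% of the summed FPKM of the 4 Itgav partners in RPTi and in RPT and 98.7% in RP. Itgb3, the vitronectin and fibrinogen receptor subunit of platelets and osteoclasts, had 2.20, 3.004 and 2.26 CPM in RPTi, against 3.32, 3.22 and 2.81 CPM in RPT and 1.54, 2.35 and 1.37 CPM in RP. It rose in RPT against RP (log2 fold change 0.83, SE 0.23, adjusted p = 0.0153), though not without RP replicate 1 (0.75, adjusted p = 0.0598) or RP replicate 3 (0.69, adjusted p = 0.0564). It did not pass in RPTi against RPT (-0.33, adjusted p = 0.265) or in RPTi against RP (0.51, adjusted p = 0.129), and the last of these passed without RP replicate 2 (0.76, adjusted p = 0.031). Itgb8 had 1.73, 1.61 and 1.65 CPM in RPTi, against 0.994, 0.929 and 0.732 CPM in RPT and 1.74, 1.97 and 2.85 CPM in RP. All RPT libraries were lowest (log2 fold change -1.30, SE 0.25, adjusted p = 0.00171, in RPT against RP and 0.90, SE 0.25, adjusted p = 0.0112, in RPTi against RPT).

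Itgb4, the hemidesmosome partner of Itga6 in epithelia, had 2.37, 1.97 and 1.73 CPM in RPTi, against 0.994, 1.08 and 1.006 CPM in RPT and 1.36, 1.34 and 0.634 CPM in RP. It was higher in RPTi than in RPT (log2 fold change 0.98, SE 0.29, adjusted p = 0.0156), except that the call was lost without RPTi replicate 1 (0.84, adjusted p = 0.0659). Against RP it rose by 0.86 (SE 0.28, adjusted p = 0.0422), a call lost without any one of RP replicate 3, RPT replicates 1 and 2, and RPTi replicates 1, 2 and 3 (0.58 to 0.96, adjusted p = 0.0516 to 0.15). The call was also lost with library totals alone (adjusted p = 0.0507), with only the 2 groups compared (0.0504) and in both limma fits on log2 FPKM (0.0683 and 0.0718). Itgb6, an epithelial subunit, had counts of 9, 10 and 10 in RPTi, 6, 13 and 13 in RPT and 22, 19 and 33 in RP. It passed in no comparison (log2 fold change -1.03, adjusted p = 0.0783, in RPT against RP and -1.17, adjusted p = 0.0565, in RPTi against RP), and the last passed without RPT replicate 1 (-1.17, adjusted p = 0.0413). The 6 epithelial markers had a summed level of 15.6 to 18.6 CPM in RPTi, 8.42 to 10.2 CPM in RPT and 17.0 to 18.04 CPM in RP. Of the 3 that were tested, 0 rose and 1 fell in RPT against RP, 1 rose and 1 fell in RPTi against RPT, and 0 rose and 2 fell in RPTi against RP (median log2 fold change -1.26). Krt8 made up most of the sum, Krt14 was at 0 in RP, and the part of such cells in the Itgb4 and Itgb6 values was not tested.

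Itgb2 and Itgb7, the beta subunits of leukocytes, were near the limit of detection. Itgb2 had 8, 7 and 8 counts in RPTi, 19, 11 and 14 in RPT and 12, 13 and 9 in RP, and passed in no comparison. Itgb7 had 4, 3 and 6 counts in RPTi, 7, 3 and 6 in RPT and 17, 5 and 4 in RP, and was not tested. The 9 leukocyte and macrophage markers summed to 29.1 to 32.3 CPM in RPTi, 47.4 to 49.5 CPM in RPT and 28.9 to 33.8 CPM in RP, most of it Cd14. In RPT against RP, 2 of the 6 tested rose and 3 fell. The defining leukocyte gene Ptprc averaged 0.0617 CPM in RPTi, 0.0294 in RPT and 0.0562 in RP, and Adgre1 was at 0 in RPTi.

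All 4 syndecans changed with thrombin, 3 up and Sdc2 down, in a comparison in which 28.9% of all tested genes passed. Sdc1, an epithelial and plasma cell syndecan, had 238, 263 and 239 CPM in RPTi, against 376, 409 and 349.6 CPM in RPT and 283, 303 and 248 CPM in RP. RPT was above both other groups (log2 fold change 0.45, SE 0.08, adjusted p = 0.00132, in RPT against RP and -0.62, SE 0.08, adjusted p = 5.53e-05, in RPTi against RPT). RPTi against RP did not pass for Sdc1 (-0.17, adjusted p = 0.144), but did without RP replicate 3 (-0.25, adjusted p = 0.043). Sdc4, the syndecan of focal adhesions, was at 256 ± 2.37 CPM in RPTi, 323 ± 4.74 CPM in RPT and 263 ± 12.5 CPM in RP (log2 fold change 0.30, adjusted p = 0.00107, in RPT against RP and -0.34, adjusted p = 0.000239, in RPTi against RPT).

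Sdc2, the most abundant syndecan per length, had 483, 460 and 499 CPM in RPTi, against 387, 374 and 453 CPM in RPT and 505, 474 and 535 CPM in RP. Its RPT libraries were all below the rest (log2 fold change -0.32, SE 0.08, adjusted p = 0.00695, in RPT against RP). It rose by 0.25 in RPTi against RPT (SE 0.08, adjusted p = 0.0178), a call that ended without RPT replicate 1, RPT replicate 2, RPTi replicate 1 or RPTi replicate 3 (0.20 to 0.25, adjusted p = 0.054 to 0.0739) and with library totals alone (0.18, adjusted p = 0.0726). The call also ended in both limma fits on log2 FPKM (0.18, adjusted p = 0.0856 and 0.0829). Sdc3, described mostly in nerve and muscle, was at 471 ± 19.3 CPM in RPTi, 503 ± 42.1 CPM in RPT and 400 ± 18.5 CPM in RP. It rose in RPT against RP (log2 fold change 0.33, SE 0.07, adjusted p = 0.00289), and RPTi against RPT did not pass (-0.09, adjusted p = 0.29) unless RPT replicate 3 was left out (-0.16, adjusted p = 0.0347). In RPTi against RP Sdc3 rose by 0.24 (adjusted p = 0.0233), a call lost without RP replicate 1 or 3 or RPTi replicate 1 or 2 (0.20 to 0.24, adjusted p = 0.0685 to 0.0954). It was also lost with library totals alone (0.18, adjusted p = 0.0631) and in both limma fits on log2 FPKM (0.18, adjusted p = 0.0786 and 0.0779). Of the summed FPKM of the 4 syndecans, Sdc2 took 36.8% ± 1.69 in RPTi, 27.8% ± 3.06 in RPT and 38.1% ± 2.96 in RP.

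Of the collagen receptor kinases, Ddr1 was highest with the inhibitor and Ddr2 did not pass. Ddr1, which is activated by several collagens, had 180, 198 and 183 CPM in RPTi, against 127, 140 and 118 CPM in RPT and 146, 154 and 146 CPM in RP. RPTi was above all other libraries (log2 fold change 0.54, SE 0.07, adjusted p = 4.83e-05, against RPT and 0.33, SE 0.07, adjusted p = 0.00442, against RP). The fall in RPT against RP (-0.21, adjusted p = 0.0388) was lost without any one of the RP replicates, RPT replicates 1 and 3, and RPTi replicates 1 and 3 (-0.23 to -0.15, adjusted p = 0.0542 to 0.115). It was also lost with library totals alone (adjusted p = 0.0506), with only the 2 groups compared (0.105) and in both limma fits on log2 FPKM (0.0568 and 0.056). Ddr2, a fibrillar collagen receptor that is known to induce Mmp13 in chondrocytes, was at 227 ± 10.4 CPM in RPTi, 232 ± 10.2 CPM in RPT and 253 ± 14.6 CPM in RP and passed in none of the 3 comparisons. Dag1, the receptor for laminin and agrin, had 538 ± 8.34 CPM in RPTi, 464 ± 11.8 CPM in RPT and 486 ± 6.08 CPM in RP. It rose by 0.21 in RPTi against RPT (SE 0.05, adjusted p = 0.00322) and by 0.15 in RPTi against RP (adjusted p = 0.0442), the second of which was lost without each library except RPT replicates 2 and 3 (0.13 to 0.16, adjusted p = 0.0708 to 0.149). That second call was also lost with library totals alone (0.09, adjusted p = 0.167) and with no filter on low counts (0.14, adjusted p = 0.102). Both limma fits on log2 FPKM lost it too (0.09, adjusted p = 0.142 and 0.157).

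Among the 11 plaque genes, Tln2 passed in RPT against RP, and Tln2 and Lims1 passed in RPTi against RPT. Tln2, the less abundant talin, was at 106 ± 2.68 CPM in RPTi, 128 ± 4.38 CPM in RPT and 109 ± 3.26 CPM in RP (log2 fold change 0.24, SE 0.06, adjusted p = 0.00737, in RPT against RP and -0.27, SE 0.06, adjusted p = 0.00174, in RPTi against RPT). Tln1, which links integrin tails to actin, was at 778 ± 42.9 CPM in RPTi, 683 ± 58.1 CPM in RPT and 694 ± 40.7 CPM in RP. In RPTi against RPT it lay just outside the threshold (0.19, adjusted p = 0.0527) and passed without RP replicate 3 (0.19, adjusted p = 0.0406), without RPT replicate 2 (0.24, adjusted p = 0.0178) and with DESeq2 (0.19, adjusted p = 0.0439). Fermt2, the kindlin of mesenchymal cells, was at 0.18 in the same comparison (adjusted p = 0.127) and passed without RPT replicate 3 (0.29, adjusted p = 0.0128). With the replicate number as a block in the model, both Tln1 (0.19, adjusted p = 0.00173) and Fermt2 (0.19, adjusted p = 0.00715) passed there.

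Ilk, the scaffold that joins integrin tails to the parvins, had 240, 261 and 233 CPM in RPTi, against 237, 250 and 224 CPM in RPT and 242, 261 and 221 CPM in RP. The groups overlapped throughout, with log2 fold changes of -0.02 (adjusted p = 0.835) in RPT against RP and 0.05 (adjusted p = 0.653) in RPTi against RPT. Its partner Parva was within 194 to 209 CPM in all 9 libraries and passed in no comparison, though every RPTi library lay below all the others. In RPTi against RPT its log2 fold change was -0.06 (adjusted p = 0.382). The fall passed with library totals alone (-0.13, adjusted p = 0.0413) and in both limma fits on log2 FPKM (-0.13, adjusted p = 0.0261 and 0.0317). In RPTi against RP, Parva passed only on log2(FPKM + 1) (-0.12, adjusted p = 0.0444). Lims1, the LIM protein of the same complex, was at 30.0 ± 1.17 CPM in RPTi, 38.3 ± 3.38 CPM in RPT and 37.4 ± 5.55 CPM in RP. It fell in RPTi against RPT (log2 fold change -0.35, SE 0.10, adjusted p = 0.0153), a call lost without RPT replicate 1 (-0.32, adjusted p = 0.0539) or RPTi replicate 2 (-0.33, adjusted p = 0.0565). Against RP it fell by 0.32 (adjusted p = 0.0409), a call lost without RP replicate 1 or 3, RPT replicate 1 or any one RPTi replicate (-0.35 to -0.20, adjusted p = 0.053 to 0.174).

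Of the 5 signalling members, 0 passed in any of the 3 comparisons. Of all tested genes, 28.9% passed in RPT against RP, 41.5% in RPTi against RPT and 24.2% in RPTi against RP. The focal adhesion kinase gene Ptk2 was at 92.0 ± 1.73 CPM in RPTi, 89.8 ± 8.94 CPM in RPT and 97.3 ± 7.98 CPM in RP (SD, n = 3). Src, the kinase that acts with it, was at 126 ± 5.36 CPM in RPTi, 127 ± 13.7 CPM in RPT and 121 ± 8.67 CPM in RP. Ptk2b, a calcium-responsive relative of Ptk2, had between 32 and 65 counts per library. The paxillin gene Pxn had log2 fold changes of 0.09 (adjusted p = 0.362) in RPT against RP and -0.01 (adjusted p = 0.952) in RPTi against RPT. Bcar1, a substrate of both kinases, was closest to the threshold, at 0.19 in RPT against RP (SE 0.07, adjusted p = 0.0522). It passed there when RP replicate 2 (0.24, adjusted p = 0.0294) or RPT replicate 3 (0.22, adjusted p = 0.0316) was left out, and with DESeq2 (0.20, adjusted p = 0.0334). Among other alternatives, Bcar1 passed there with the replicate number as a block in the model (0.19, adjusted p = 0.00971). In RPTi against RP, Bcar1 was also at 0.19 (adjusted p = 0.061) and passed when RP replicate 2 (0.24, adjusted p = 0.0331), RPT replicate 2 (0.19, adjusted p = 0.0426) or RPT replicate 3 (0.19, adjusted p = 0.0401) was left out.

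With thrombin and inhibitor together, 8 of the 12 alpha subunits differed from plasma alone, a comparison in which 24.2% of all tested genes passed. In RPTi against RP, Itga7, Itga9, Itga10 and Itga11 rose and Itga2, Itga3, Itga6 and Itgav fell, with log2 fold changes from -1.76 (Itga3) to 1.68 (Itga7). The member count in this comparison depended on scaling: 8 rose and 5 fell with TMM, while 5 rose and 9 fell with library totals alone. The 8 alpha subunits just named passed with the same sign under all 18 alternatives.

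The wider adhesion machinery was read from lists chosen with earlier results of these data known. Of 40 tested adhesion plaque genes outside the 38, 10 rose and 10 fell in RPT against RP and 11 rose and 12 fell in RPTi against RPT (median log2 fold change 0.04 and 0.03, beside -0.0007 and -0.01 for all genes). Of all tested genes, 13.6% rose and 15.2% fell in the first comparison, and 20.4% rose and 21.1% fell in the second. The parvin gene Parvb was at 25.3 ± 0.612 CPM in RPTi, 80.6 ± 5.69 CPM in RPT and 47.2 ± 4.13 CPM in RP (log2 fold change 0.77, adjusted p = 1.28e-05, in RPT against RP and -1.67, adjusted p = 7.81e-09, in RPTi against RPT). Lims2, the close relative of Lims1, was higher in RPTi, at 22.7 ± 2.26 CPM against 7.10 ± 0.573 CPM in RPT and 8.35 ± 0.508 CPM in RP. Zyx, the zyxin of tension-bearing adhesions, rose with thrombin (log2 fold change 0.57, adjusted p = 0.000282), whereas its relative Lpp fell (-0.67, adjusted p = 7.85e-05). With the inhibitor Tns2, a tensin, rose by 0.80 (adjusted p = 2.77e-06) against RPT.

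Many genes for ligands of these receptors were lower with thrombin, though the fibronectin gene Fn1, the most abundant of the list, was higher. Fn1 was at 35632 ± 845 CPM in RPTi, 52013 ± 501 CPM in RPT and 44392 ± 816 CPM in RP. Its log2 fold change was 0.23 (adjusted p = 0.000434) in RPT against RP and -0.55 (adjusted p = 1.07e-07) in RPTi against RPT. Of 33 tested ligand genes, 7 rose and 16 fell in RPT against RP, and 20 rose and 4 fell in RPTi against RPT (median log2 fold change -0.26 and 0.47, beside -0.0007 and -0.01 for all genes). The shares over all tested genes were 13.6% rising and 15.2% falling in RPT against RP, and 20.4% and 21.1% in RPTi against RPT. Osteopontin (Spp1), a ligand of Itgav and Itga9 receptors, was at 432 ± 34.1 CPM in RPTi, 5155 ± 726 CPM in RPT and 2192 ± 116 CPM in RP. Col2a1, the collagen bound by Itga10, stood at 41197 ± 1322 CPM in RPTi, 16198 ± 1148 CPM in RPT and 26064 ± 1016 CPM in RP. The laminin gene Lama5 was at 46.6 ± 3.08 CPM in RPTi, 15.1 ± 2.22 CPM in RPT and 22.3 ± 0.294 CPM in RP. The integrin-activated growth factor gene Tgfb1 rose in RPT against RP (log2 fold change 0.69, adjusted p = 0.000124), while Tgfb3 rose in RPTi against RPT (1.44, adjusted p = 2.29e-09). Vcam1 fell in RPT against RP (-1.73, adjusted p = 0.000274) and was low throughout, at 1.03 CPM in RPTi, 0.681 CPM in RPT and 2.26 CPM in RP on average.

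Other surface receptors and partners gave 8 rises and 10 falls of 33 in RPT against RP and 11 rises and 14 falls in RPTi against RPT. Over all tested genes the shares were 13.6% rising and 15.2% falling, and 20.4% rising and 21.1% falling, in that order. The median log2 fold change of the list was 0.07 and -0.03, beside -0.0007 and -0.01 for all genes. Cd44, the hyaluronan receptor, was at 123 ± 11.5 CPM in RPTi, 399 ± 29.8 CPM in RPT and 192 ± 5.55 CPM in RP (log2 fold change 1.05, adjusted p = 6.75e-07, in RPT against RP and -1.70, adjusted p = 4.23e-09, in RPTi against RPT). Plaur, the urokinase receptor, rose in RPT against RP (1.20, adjusted p = 3.94e-06). The glypican gene Gpc3 fell by 0.88 in RPT against RP (adjusted p = 5.69e-06) and rose by 1.47 in RPTi against RPT (adjusted p = 2.32e-08). Bcam, a laminin receptor outside the integrins, did likewise at a lower level (-0.996, adjusted p = 0.00161, and 1.92, adjusted p = 3.54e-06). The tetraspanin gene Cd151, a partner of Itga3 and Itga6, passed in RPTi against RPT (-4.00, adjusted p = 0.0363), but RPT replicate 1 held nearly all of its RPT counts. They were 20, 36 and 25 in RPTi, 1369, 43 and 29 in RPT and 27, 348 and 27 in RP.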

How the data were processed

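The deposited table gave read counts per rat gene for 9 libraries of poly-A selected RNA, made by the authors on Rnor_6.0 per the submitters' processing notes, which list DESeq2 1.26.0, HTSeq 0.11.2 and HISAT2 without their roles. The sources used here give neither strand setting nor annotation release. FPKM in the same table, deposited by the authors, equalled counts over a gene length and the library total, with a largest relative difference of 2.2e-13. They were used for levels between genes and for shares.

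CPM were scaled by TMM. Genes were kept by filterByExpr (minimum count 10, minimum total 15), which left 13856 of 18924. One edgeR 4.0.16 quasi-likelihood model (R 4.3.3, TMM factors) was fitted to all 9 libraries, and p-values were adjusted by Benjamini-Hochberg over all tested genes with a threshold of 0.05. Each standard error is the size of the log2 fold change over the root of F. One count was worth 0.0226 to 0.0323 CPM, which limits the precision of scarce genes. Alternatives were other scalings, other filters, DESeq2 1.42.0, limma 3.58.1 on log2(FPKM + 1) and log2(FPKM + 0.1), only the 2 groups compared, a replicate block and leaving out each library. The code was run on simulated counts drawn from the same kind of model as the fit, which cannot show how well that model holds for these libraries.

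Values of every library are given for members that passed in RPT against RP or RPTi against RPT with a log2 fold change of at least 0.5 in size, and for the 3 most abundant. From each related list up to 6 called genes with the largest change per comparison could be named, and from each marker list the 2 most abundant. Ptprc, Krt14, Gp9, Gp1ba, Adgre1 and Cdh5 were named after their values were seen, for being at or near 0. Fn1 was also named after its values were seen, as the most abundant listed ligand. The members and lists were chosen with earlier results of these data known. The lists are adhesion plaque genes, ligands, other surface receptors, and markers of chondrocytes, leukocytes, platelets, endothelium, epithelium, and smooth muscle and fibroblasts. Fermt1, Crkl, Hspg2, Fga, Itgam, Ppbp, Treml1 and Pecam1 of these lists matched no row by symbol and are not analysed here, while Ccn1 and Ccn2 were read under their older symbols Cyr61 and Ctgf. Promoters came from the RefSeq table for GRCr8, and 12 members had no entry. Results for some genes of these lists are not reported here.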

Additional observations from a re-analysis of the deposited data

How the results depend on the processing

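Of 48 member results that passed, 38 passed with the same sign under all 18 alternatives, 10 lost the call under at least 1, and 0 reversed. Of 63 that did not pass, 18 passed under at least 1 alternative, among them Itgb5 and Ddr2 in RPTi against RP with library totals alone (-0.20 and -0.21). The count of members rising in RPTi against RP, 8, was 5 with library totals alone, 5 on log2(FPKM + 1), 5 on log2(FPKM + 0.1), and 5 to 10 without 1 library. The count falling there, 5, was 9 with library totals alone and 10 with a replicate block. Beyond these and the single calls named with their genes, the cause was not tested. Over all tested genes, weighted alike on the log scale, deviations of samples with the same replicate number correlated from -0.114 to 0.124. For different numbers they ran from -0.161 to 0.143. Ilk was highest in replicate 2 and lowest in replicate 3 in every group. Src, Tln1, Sdc3 and Itga11 had the same order in every group. Sdc2, Fermt2, Ddr2 and Itga8 had the reverse, highest in replicate 3 and lowest in replicate 2, while Parva had neither order. Adding a replicate block gave 2514 rises and 2560 falls over all genes in RPT against RP, beside 1886 and 2113 without it. The labels give no shared source for a number, so the main fit had no block, and pairing was not tested further. With the block, 12 members rose and 7 fell in RPT against RP, 11 rose and 10 fell in RPTi against RPT, and 12 rose and 10 fell in RPTi against RP. Calls gained with the block were Itgb1, Bcar1 and Ddr2 in RPT against RP, and Tln1 and Fermt2 in RPTi against RPT. In RPTi against RP they were Fermt2, Tln1, Bcar1 and Itga5 rising, and Itgb5, Ddr2, Itgb6, Itga8 and Sdc1 falling. Depth limits Itgb2, Itgb6 and Itgb7, with 33 or fewer counts in every library.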

Other observations

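Of 2 tested endothelial markers, 1 rose and 0 fell in RPT against RP, and 0 rose and 1 fell in RPTi against RPT. The 5 endothelial markers summed to 1.71 to 2.09 CPM in RPTi, 2.90 to 4.37 CPM in RPT and 1.64 to 2.35 CPM in RP, and the defining gene Cdh5 was at 0 in RPTi and RP.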
